A study of Mus musculus with 24 samples.

Results

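The TBC family comprises the proteins that carry a Tre-2/Bub2/Cdc16 (TBC) domain, and its transcripts were measured here in RAW264.7 cells, a mouse macrophage-like line. The members were all array probes whose gene name is Tbc1d followed by a digit, together with Tbck, Evi5, Evi5l, Grtp1, Usp6nl, Rabgap1, Rabgap1l, Sgsm1, Sgsm2 and Sgsm3. The array held 70 such probes for 37 gene names, and no probe had the name Tbck. A probe was retained where all 3 arrays of 1 or more of the 8 groups gave a signal well above background. This left 55 probes of 34 genes, out of 21960 probes and 15298 gene names retained in all. Tbc1d8, Tbc1d9 and Tbc1d21 were not retained, with at most 3 arrays above background for any probe of theirs. The retained genes nearest to that limit were Rabgap1l, whose leading probe was above background on 12 arrays, all of the control line, and Tbc1d30, on 17.

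One line of cells harboured a construct that overexpresses Tbc1d23, per the labels, and the control line harboured one for chloramphenicol acetyltransferase (CAT), a bacterial enzyme. Both lines were kept in G418 and were left without lipopolysaccharide (LPS, a bacterial cell wall component that activates macrophages) for the 0 h groups or received 20 ng/ml LPS for 1, 3 or 5 h. There were 3 arrays per line and time, 24 in all, called biological replicates by the submitters. No source used here says if the replicates were separate cultures. Each construct is represented by 1 line, and the p-values cover only the spread among these arrays. The promoter of the constructs and the part of the Tbc1d23 transcript that they carry are not given in the sources used here.

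Rab proteins are small GTPases that mark membranes and recruit the machinery of vesicle traffic while bound to GTP. TBC proteins bind Rabs and, through an arginine and a glutamine in the TBC domain, speed the hydrolysis of GTP, which turns the Rab off. Members differ in the Rab they act on and in the compartment where they sit, from the Golgi to endosomes, lysosomes and autophagosomes, and some have lost the catalytic residues and serve as scaffolds. In macrophages these routes carry bacteria to lysosomes, receptors to the surface and cytokines out of the cell.

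In the control line more members fell than rose after LPS. The arrays hold bulk RNA, in which fewer cells that carry a transcript and fewer transcripts per cell cannot be told apart. At 3 h 18 of the 34 members were lower and 4 higher, and at 5 h 17 were lower and 3 higher (limma, Benjamini-Hochberg adjusted p under 0.05). Over all gene names, 18.7% were lower and 16.2% higher at 3 h, and 23.3% were lower and 18.4% higher at 5 h. The median member changed by -0.49 (log2) at 3 h and -0.28 at 5 h, against -0.02 and 0.01 over all gene names. In the Tbc1d23 line 2 members were higher and 2 lower at 3 h, and 3 were higher and 2 lower at 5 h. That compares with 3.44% higher and 3.37% lower over all gene names at 3 h, and 3.03% and 3.29% at 5 h.

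The difference between the 2 responses was tested directly. At 5 h the change was higher in the Tbc1d23 line for 12 members and lower for 1, where 12.7% of all gene names were higher and 10.6% lower. At 3 h it was higher for 9 and lower for 3, where the shares over all gene names were 8.17% and 8.47%. The median member differed by 0.38 at 3 h and 0.34 at 5 h, against -0.03 and -0.01 over all gene names. Of the 22 members that changed in the control line at 3 h, 4 changed the same way in the Tbc1d23 line, and the responses differed for 12, where over all gene names called there 15.6% changed the same way and 45.6% differed. At 5 h the control line changed 20, of which 4 changed the same way in the other line and 12 differed in response, against 12.9% and 54.5%. Since both responses enter the difference, these counts are not independent of one another.

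Same-numbered arrays within a line lay on 1 slide and deviated together, so the line's replicate was also fitted as a block. Member counts with it are given only where they moved beyond the limit stated in the closing section on processing. Smaller moves are not listed, among them any in the control line at 3 and 5 h or in the difference of responses at 5 h. Over all gene names the block raised the shares called there. In the control line 23.1% were higher and 26.0% lower at 3 h, and 26.9% and 30.1% at 5 h. Responses at 5 h differed upward for 21.3% and downward for 18.6%. With this replicate block 11 members changed at 3 h in the Tbc1d23 line (3 higher, 8 lower), where 7.25% of all gene names were higher and 9.78% lower. At 5 h 8 did (3 higher, 5 lower), against 6.85% and 8.86%. The block also gave 19 members that differed in response at 3 h (14 higher, 5 lower), against 15.3% and 15.1%. The slides fell into 2 runs of barcodes, with replicates 1 and 2 of the Tbc1d23 line in one run and the other 16 arrays in the other. Within the run of 16 arrays, which leaves 1 Tbc1d23 array per time, 3 members differed in response at 3 h and 7 at 5 h, where 10.9% and 17.1% of all gene names differed. The median difference over the members there was 0.41 at both times. The Tbc1d23 line had 2 members called at 3 h without its 0 h replicate 1. At 5 h it had 3 without 0 h replicate 1, 5 h replicate 2 or 5 h replicate 3, and 2 without 0 h replicate 2.

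After 1 h few members moved. In the control line 1 was called lower, Tbc1d14, where 3.65% of all gene names were higher and 3.95% lower. It was not called without control replicate 2 or 3 at 0 h or replicate 3 at 1 h, and 7 members (2 higher, 5 lower) were called with the replicate block, against 6.31% and 11.4% of all gene names. None of the 34 was called in the Tbc1d23 line by limma, where 0.837% of all gene names were called higher and 0.837% lower. An unadjusted limma p under 0.05 was found for 2 members and for 1155 of all 15298 gene names. None differed in response at 1 h by limma either, and 1 had an unadjusted p under 0.05, as did 1273 of all gene names. With the replicate block 1 was called, where 5.82% of all gene names were. Without the block 0.621% of all gene names differed upward and 1.76% downward at that time.

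**Figure D1:**
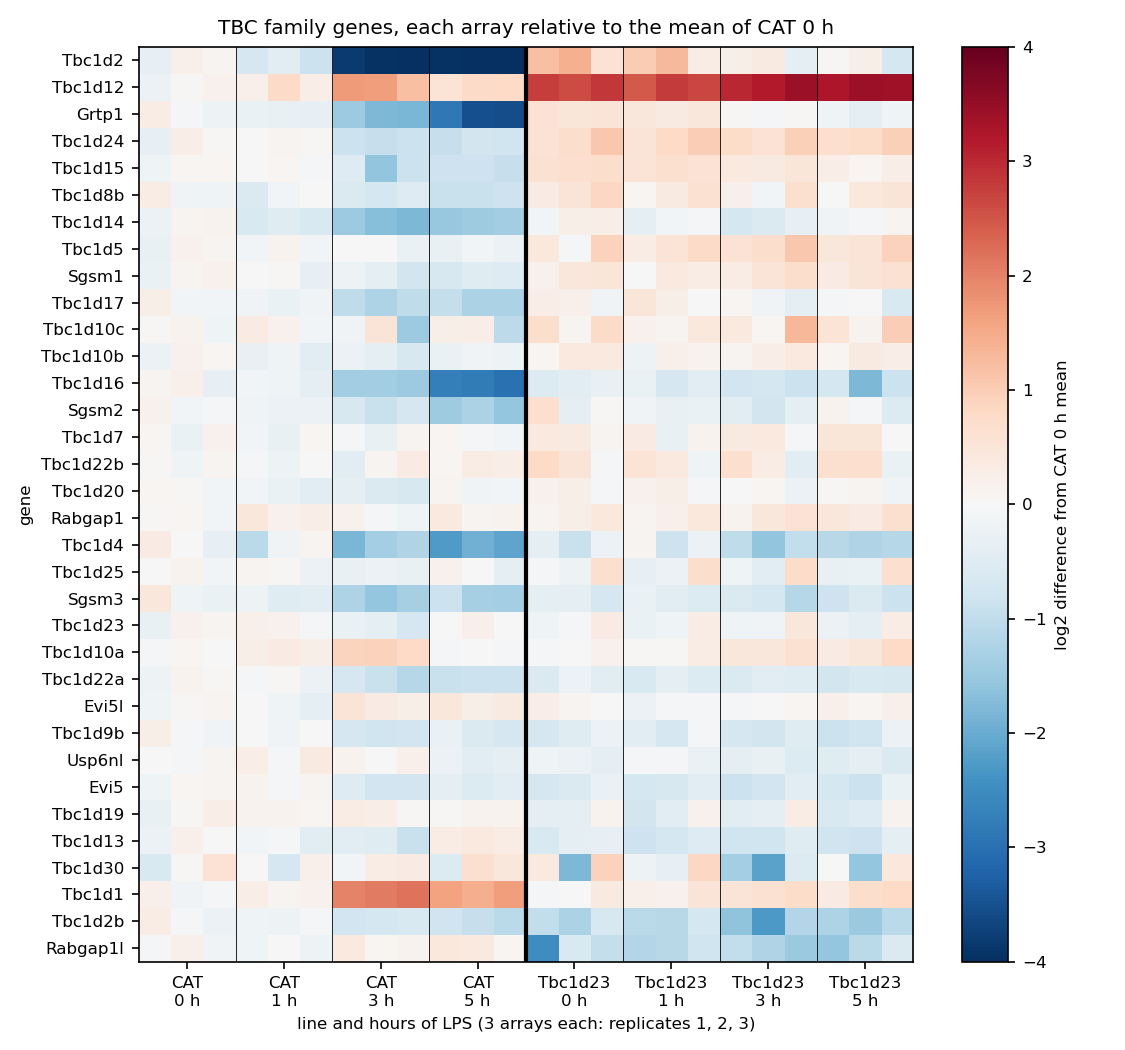
Each row is 1 of the 34 TBC family genes and each column 1 of the 24 arrays, grouped by line and hours of LPS; colour gives the log2 difference from the mean of the 3 control arrays at 0 h, with values beyond the ends of the scale drawn at its ends. Genes are ordered by the mean difference between the lines, so that Tbc1d2 and Tbc1d12 stand at the top and Rabgap1l at the bottom, and the blue blocks of the control line at 3 and 5 h have paler counterparts in the Tbc1d23 line.

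Tbc1d23 is the member that the construct carries. The protein sits at the trans-Golgi and captures endosome-derived vesicles, through the golgins Golga1 and Golga4 on one side and the WASH complex subunit Washc2 (FAM21) on the other, and its TBC domain is thought to lack catalytic activity. Of its 4 probes, A_52_P448220 is shown because its genomic span is longer than the probe. In the main fits it was also the only 1 of the 2 retained probes called between the lines. Of its 3 forward reading frames 1 is free of stop codons. The probe maps to chr16:57170528-57171769 (mm9, minus strand), a span longer than the probe, and starts at base 2039 of the transcript.

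A_52_P448220: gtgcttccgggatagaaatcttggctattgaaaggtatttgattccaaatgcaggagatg

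On the log2 scale used throughout, in which 0 is the 75th percentile of the array, this probe read -1.09, -0.71 and -0.31 in the 3 control arrays at 0 h, and -0.32, -0.29 and -0.43 in the Tbc1d23 line. At 3 h the control arrays read -0.97, -0.92 and -0.87 and the Tbc1d23 arrays -0.29, 0.49 and 0.04. The groups overlapped at 0 h and were separate at 3 h. The probe was higher in the Tbc1d23 line by 1.00 ± 0.18 at 3 h (limma SE, 3 arrays per group, adjusted p over all probes = 0.000118), a 2.00-fold difference, and 0.49 ± 0.18 at 5 h (0.0251). At 0 h the difference was 0.36 ± 0.18 (adjusted p = 0.11) and at 1 h 0.18 ± 0.18 (0.448). Averaged over the 4 times of each replicate it was 0.51 ± 0.12 (adjusted p = 0.0143), or 1.42-fold, where 26.0% of all probes were called higher. This mean difference missed the threshold without control replicate 1 (0.45, adjusted p = 0.0512) or 2 (0.51, adjusted p = 0.051). It also missed it after blocking on the slide run (0.42, 0.08), in the run of 16 arrays alone (0.42, 0.0878) and with arrays centred on their medians (0.29, adjusted p = 0.596).

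The probe that represents the gene, A_51_P223575 (chr16:57169122-57169181, mm9, minus strand, from base 3445), lies nearer to the end of the transcript. Its 12 control arrays ran from 2.52 to 3.39 with a median of 3.20, and its 12 Tbc1d23 arrays from 2.83 to 3.63 with a median of 3.04. The lines were separate at 3 h and overlapped at the other times, and the mean difference was 0.04 ± 0.18 (adjusted p = 0.862). The largest difference at a single time was 0.47 ± 0.21 at 3 h (adjusted p = 0.0693), where 26.0% of all probes were called higher. Leaving out Tbc1d23 5 h replicate 3 brought it past the threshold (0.47, adjusted p = 0.0478). Blocking on slides at random (0.47, 0.0395), blocking on the slide run (0.83, 5.54e-05) and keeping to the run of 16 arrays (0.87, 0.00843) did so too. Adjusted over gene names, the probe was called higher at 0 h after blocking on the slide run (0.39, adjusted p = 0.0231) and lower at 5 h without replicate 3 of the Tbc1d23 line at all times (-0.38, 0.0381). Its response in the control line at 3 h, -0.43 ± 0.21 (adjusted p = 0.134), was called with the replicate block (0.00496) and under other settings, among them quantile normalization (-0.51, 0.0345). Replicate 3 of the Tbc1d23 line was the highest of its 3 arrays at every time, with 3.51, 3.48, 3.63 and 3.49.

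The other 2 probes were at or near background. A_52_P448398 (chr16:57180165-57180224) was above it on 6 arrays, 2 of the control and 4 of the Tbc1d23 line, and ran from -6.96 to -3.48. A_52_P639108 (chr16:57177387-57177446) was above it on none of the 24 and ran from -7.13 to -4.65. Both are on the minus strand in mm9, carry no stop-free forward frame and have cDNA accessions other than that of the detected probes. A probe outside the part that the construct carries would not show it. Which probes, if any, lie outside is not given, so these values do not check the labels.

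**Figure D2:**
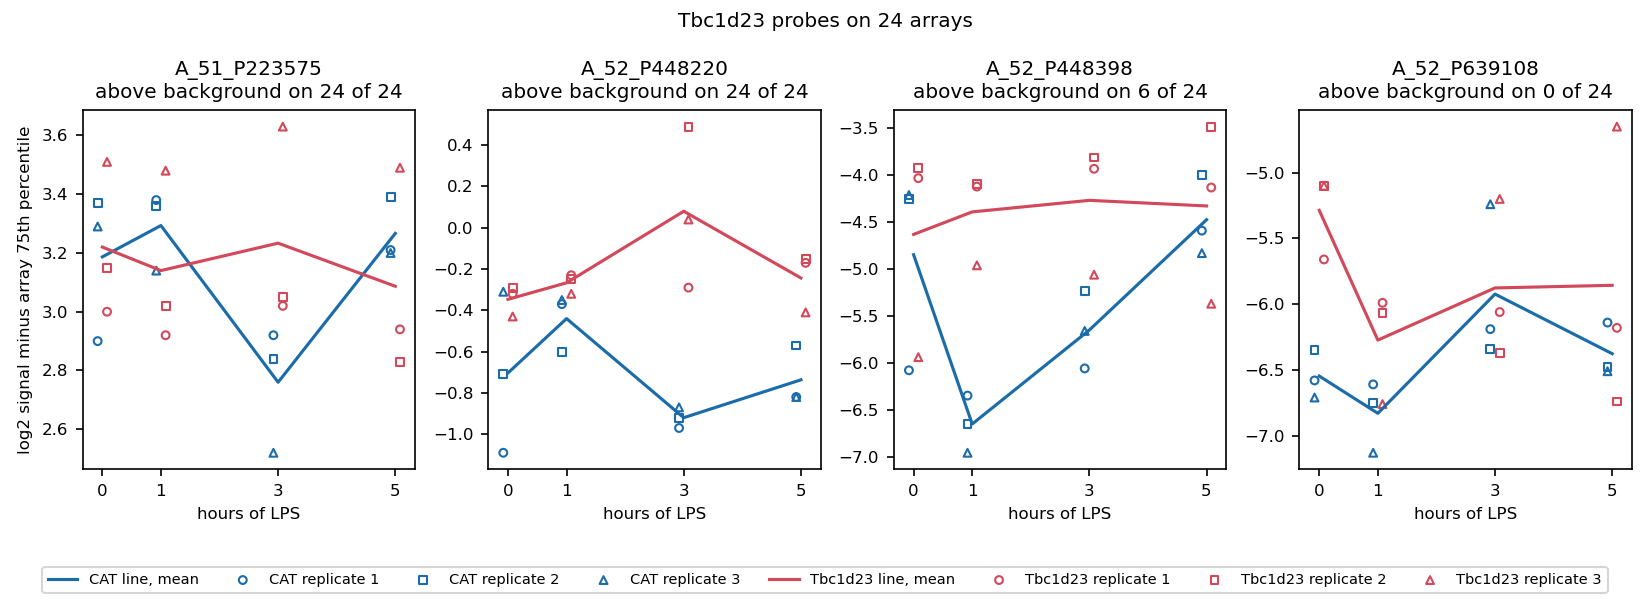
The 4 probes of Tbc1d23 are plotted by hours of LPS, as log2 signal minus the 75th percentile of the array; each symbol is 1 array and each line the mean of 3, and the vertical scales differ between panels. The Tbc1d23 line lies above the control line at 3 h for A_52_P448220, while A_51_P223575 has overlapping lines at 0, 1 and 5 h.

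Among the lists of related genes, Golga4 was higher in the Tbc1d23 line in the mean of times by 0.94 ± 0.18 (adjusted p = 0.00685) and Golga1 differed by 0.12 ± 0.12 (0.446). Washc2 fell by 1.17 ± 0.12 at 5 h in the control line (adjusted p = 1.48e-07), and its response differed by 0.91 ± 0.17 (adjusted p = 0.000443). These 3 partners are named for their link to Tbc1d23, after their values were seen, and at different comparisons. Of the 33 partner proteins tested 6 rose and 6 fell at 5 h in the control line, against 18.4% and 23.3% of all gene names. Their responses at 5 h differed upward for 2 and downward for 4, with a median of -0.09, against 12.7% and 10.6% of all gene names.

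Tbc1d2, also called Armus, is a Rab7 regulator that links Rac1 signalling to the breakdown of cell junctions and to autophagosomes, and it showed the widest changes of the family. Its leading probe lies at chr4:46617336-46617395 (mm9, minus strand). In the control line the 0 h arrays read 2.42, 2.97 and 2.87, the 1 h arrays 2.09, 2.30 and 1.89, the 3 h arrays -1.06, -1.21 and -1.30, and the 5 h arrays -1.21, -1.23 and -1.27. In the Tbc1d23 line they read 3.96, 4.19 and 3.34 at 0 h, 3.77, 4.06 and 3.05 at 1 h, 3.00, 3.11 and 2.40 at 3 h, and 2.81, 2.98 and 2.04 at 5 h. The lines were separate at every time, and within the control line all 3 and 5 h arrays lay below all earlier ones.

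Tbc1d2 thus fell by 3.99 ± 0.28 at 5 h in the control line (limma, n = 3 per group, adjusted p = 7.7e-10), 15.9-fold, and by 1.22 ± 0.28 in the Tbc1d23 line (adjusted p = 0.00967). The responses differed by 2.77 ± 0.39 at 5 h and 2.95 ± 0.39 at 3 h (adjusted p = 2.73e-05 and 2.03e-05). The call in the Tbc1d23 line was lost without its 0 h replicate 2 (-1.04, adjusted p = 0.0649) or 5 h replicate 3 (-0.94, adjusted p = 0.0626). It was lost as well with arrays centred on their medians (-0.97, adjusted p = 0.51) and with the mean of both probes (-0.69, adjusted p = 0.176). Before LPS the Tbc1d23 line was already higher by 1.08 ± 0.28 (adjusted p = 0.0041), and at 3 h it was higher by 4.03 ± 0.28, or 16.3-fold (adjusted p = 9.4e-10). In the mean of times the difference was 2.62 ± 0.24, or 6.15-fold (adjusted p = 0.000504), and 2.10 within the run of 16 arrays. A second probe, A_51_P454707 at chr4:46645509-46645568 did not show this. It changed by -0.21 ± 0.68 at 5 h in the control line (adjusted p = 0.862) and differed between the lines by -0.22 ± 0.58 in the mean of times (0.785).

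Tbc1d14 binds the TRAPP complex and Rab11-bearing recycling endosomes and regulates starvation-induced autophagy. Its leading probe lies at chr5:36833379-36833438 (mm9, minus strand). The control arrays read 4.58, 4.94 and 4.97 at 0 h, 4.21, 4.36 and 4.21 at 1 h, 3.37, 3.12 and 3.03 at 3 h and 3.31, 3.40 and 3.43 at 5 h. The Tbc1d23 arrays read 4.72, 5.07 and 5.10 at 0 h, 4.47, 4.72 and 4.78 at 1 h, 4.13, 4.26 and 4.49 at 3 h and 4.68, 4.79 and 4.94 at 5 h. In the Tbc1d23 line the 3 h arrays were below and the 5 h arrays back among the 0 h values. Tbc1d14 fell in the control line, by -0.57 ± 0.14 at 1 h, -1.66 ± 0.14 at 3 h and -1.45 ± 0.14 at 5 h (limma adjusted p = 0.0118, 1.28e-08 and 5.87e-08). In the Tbc1d23 line it fell by 0.67 ± 0.14 at 3 h (adjusted p = 0.0042) and stood at -0.16 ± 0.14 at 5 h (0.756). The responses differed by 0.99 ± 0.20 at 3 h and 1.29 ± 0.20 at 5 h (adjusted p = 0.00119 and 5.52e-05). In the mean of times the Tbc1d23 line was higher by 0.77 ± 0.12 (adjusted p = 0.00331), which missed the threshold with arrays centred on their medians (0.55, adjusted p = 0.287). A second probe, A_52_P290098, was not well above background in the control line at 3 and 5 h, at least 1.47-fold and 1.35-fold below 0 h. In the Tbc1d23 line it stood at 0.17 at 3 h. Of the 2 probes 1 was called in the control line at 1 h and at 5 h and in the Tbc1d23 line at 3 h. For the difference of responses 1 was called at 3 h and 1 at 5 h.

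Tbc1d17, a relative of the Rab7 regulator Tbc1d15 and a binding partner of optineurin, was separate from its 0 h values in the control line at 3 and 5 h (probe at chr7:52096938-52096997, mm9, minus strand). Its control arrays read 0.51, 0.17 and 0.18 at 0 h, 0.14, 0.02 and 0.16 at 1 h, -0.73, -0.94 and -0.72 at 3 h and -0.68, -0.97 and -0.99 at 5 h. The Tbc1d23 arrays read 0.55, 0.50 and 0.16 at 0 h, 0.76, 0.51 and 0.30 at 1 h, 0.37, 0.15 and -0.10 at 3 h and 0.24, 0.30 and -0.31 at 5 h. Replicate 3 was the lowest Tbc1d23 array at every time. The control line fell by 1.17 ± 0.17 at 5 h (limma adjusted p = 1.62e-05), the Tbc1d23 line stood at -0.33 ± 0.17 (0.402), and the responses differed by 0.84 ± 0.24 (0.0163). With the replicate block the change in the Tbc1d23 line passed the threshold (adjusted p = 0.0162). The difference of responses missed it within the run of 16 arrays (0.70, adjusted p = 0.0953), with arrays centred on their medians (1.13, adjusted p = 0.159) and with a repaired normexp background correction, an alternative chosen after seeing the data (0.46, adjusted p = 0.131). The mean difference between the lines, 0.60 ± 0.15 (adjusted p = 0.0211), missed it without control replicate 2 or 3 or Tbc1d23 replicate 1 or 2 (0.51 to 0.59). After blocking on the slide run it was 0.33 (adjusted p = 0.126).

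Tbc1d15, which acts on Rab7 and is held at mitochondria by Fis1, was higher in the Tbc1d23 line at all 4 times, by 0.59 ± 0.17 to 1.42 ± 0.17. Its group means ran from 1.24 ± 0.54 (SD, n = 3) in the control line at 3 h to 2.90 ± 0.05 in the Tbc1d23 line at 0 h. Tbc1d5, a Rab7 regulator bound to retromer, was higher in the Tbc1d23 line at 1, 3 and 5 h, by 0.55 ± 0.21 to 0.89 ± 0.21, with group means from 2.14 to 3.14. Its 3 probes disagreed on the control response at 5 h: one rose by 0.36 ± 0.13, another fell by 0.41 ± 0.12 and the leading one stood at -0.21 ± 0.21. Tbc1d2b, a relative of Tbc1d2 that binds Rab22a, was lower in the Tbc1d23 line at 0, 1 and 3 h, with differences of -0.81 ± 0.23 to -1.00 ± 0.23, with group means from -2.92 to -1.23. Tbc1d25, a partner of the autophagy protein LC3, had group means from -0.82 to -0.43 and passed no test between the lines.

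Tbc1d12, a relative of Tbc1d14 that binds Rab11, was the member with the largest difference before LPS. Its leading probe lies at chr19:38992543-38992602 (mm9, plus strand). The control arrays read -3.52, -3.25 and -3.13 at 0 h, -3.09, -2.55 and -3.05 at 1 h, -1.60, -1.63 and -2.09 at 3 h and -2.74, -2.52 and -2.49 at 5 h. The Tbc1d23 arrays read -0.52, -0.70 and -0.46 at 0 h, -0.85, -0.51 and -0.63 at 1 h, -0.29, -0.13 and 0.12 at 3 h and -0.08, 0.11 and 0.10 at 5 h. Every Tbc1d23 array lay above every control array. The difference was 2.74 ± 0.17 at 0 h (limma adjusted p = 2.35e-10), 6.67-fold, and 2.32 ± 0.12 in the mean of times (adjusted p = 7.33e-05), 4.98-fold. A second probe, A_51_P424569, was not well above background in the control line at 0 and 5 h. It was at least 3.20-fold higher in the Tbc1d23 line at 0 h and 2.87-fold at 5 h, a bound set by the dimmest signals that were above background. This second probe was retained through the Tbc1d23 line alone, so its direction is partly given by the filter.

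LPS raised Tbc1d12 in the control line by 1.52 ± 0.17 at 3 h (adjusted p = 4.77e-07) and 0.71 ± 0.17 at 5 h (adjusted p = 0.00163). The change at 5 h was 0.38 (adjusted p = 0.0651) with the mean of both probes, 0.30 (0.0609) with repaired normexp and 0.68 (0.141) with arrays centred on their medians. Within the Tbc1d23 line it rose by 0.60 ± 0.17 at 5 h (adjusted p = 0.0357). That call was lost without Tbc1d23 replicate 1, 2 or 3 at 0 h or replicate 2 or 3 at 5 h, with values of 0.53 to 0.65 and adjusted p of 0.0531 to 0.147. The responses differed by -1.07 ± 0.23 at 3 h and -0.11 ± 0.23 at 5 h (adjusted p = 0.00299 and 0.829).

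Tbc1d16, which acts on the endosomal Rab4a and slows receptor recycling, had its leading probe at chr11:119008468-119008527 (mm9, minus strand). The control arrays read 3.39, 3.49 and 2.96 at 0 h, 3.16, 3.12 and 2.89 at 1 h, 1.90, 1.88 and 1.83 at 3 h and 0.55, 0.49 and 0.28 at 5 h. The Tbc1d23 arrays read 2.73, 2.84 and 2.99 at 0 h, 3.00, 2.62 and 2.87 at 1 h, 2.50, 2.58 and 2.41 at 3 h and 2.58, 1.48 and 2.42 at 5 h. Before LPS the lines overlapped, and at 5 h all Tbc1d23 arrays lay above all control arrays, replicate 2 being the lowest of them. The control line fell by 2.84 ± 0.21 at 5 h (limma adjusted p = 1.42e-09), 7.15-fold, and the responses differed by 2.15 ± 0.29 (adjusted p = 1.68e-05). Within the Tbc1d23 line the change was -0.69 ± 0.21 (adjusted p = 0.0556). It was called with the replicate block (adjusted p = 0.0162), without replicate 1 (-0.90, 0.0136) or replicate 3 (-0.82, 0.0413) of the Tbc1d23 line at 5 h, and without control 0 h replicate 3 (-0.69, 0.0481). In the mean of times the Tbc1d23 line was higher by 0.42 ± 0.14 (adjusted p = 0.0477). That call was lost, among other settings, within the run of 16 arrays (0.51, 0.0767), and without any 1 of the 3 control replicates or Tbc1d23 replicate 1 or 3 (0.34 to 0.47).

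Tbc1d24, whose mutations cause epilepsy and deafness and which binds the small GTPase ARF6, was higher in the Tbc1d23 line throughout (probe at chr17:24315907-24315966, mm9, minus strand). The control arrays read -2.42, -1.81 and -2.04 at 0 h, -2.07, -1.99 and -2.05 at 1 h, -2.96, -3.02 and -2.96 at 3 h and -3.01, -2.83 and -2.89 at 5 h. The Tbc1d23 line gave -1.50, -1.39 and -1.00 at 0 h, -1.59, -1.29 and -1.10 at 1 h, -1.37, -1.51 and -1.15 at 3 h and -1.41, -1.36 and -1.13 at 5 h. All 12 Tbc1d23 arrays lay above all 12 control arrays. The mean difference was 1.19 ± 0.14 (limma adjusted p = 0.00115), 2.28-fold. In the control line the transcript fell by 0.83 ± 0.16 at 5 h (adjusted p = 0.000283), and the responses differed by 0.82 ± 0.22 (adjusted p = 0.0106). With repaired normexp these were -0.13 (adjusted p = 0.526) and 0.13 (0.76). That correction adds an offset of 50 signal units, which narrows differences between dim signals. Within the run of 16 arrays the difference of responses was 0.70.

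Rabgap1l, a relative of the Rab6-binding Rabgap1, was lower in the Tbc1d23 line at every time (probe at chr1:162187336-162187395, mm9, minus strand). The control arrays read -3.81, -3.55 and -3.87 at 0 h, -3.91, -3.77 and -3.95 at 1 h, -3.34, -3.66 and -3.60 at 3 h and -3.33, -3.36 and -3.66 at 5 h. Arrays of the Tbc1d23 line read -6.22, -4.35 and -4.69 at 0 h, -4.93, -4.86 and -4.54 at 1 h, -4.72, -4.94 and -5.22 at 3 h and -5.30, -4.81 and -4.33 at 5 h. None of these 12 Tbc1d23 arrays was well above background, so the control line was at least 1.35-fold higher at 0 h, 1.47-fold at 1 h, 1.90-fold at 3 h and 2.17-fold at 5 h. The fitted mean difference was -1.26 ± 0.19 (limma adjusted p = 0.00287), and -0.35 (adjusted p = 0.0761) with repaired normexp. Since the gene was retained through the line in which it is bright, its lower level in the other line is partly given by that choice. Of its 3 retained probes 2 were called lower at 0 h, 2 at 1 h, 1 at 3 h and 3 at 5 h. Their differences at 0 h ran from -1.67 to 0.48. Another probe, A_51_P286610, was above background on all 3 control arrays at 5 h and on none at 0 h, at least 2.68-fold higher at 5 h. It was retained through the control arrays at 5 h alone, so this rise is partly given by the filter. The third, A_52_P506529, rose by 0.96 ± 0.34 at 5 h in the control line (limma adjusted p = 0.0292), while the leading probe stood at 0.30 ± 0.33. With the mean of the 3 probes the control line rose (adjusted p = 0.000511) and the responses differed (adjusted p = 0.0296). These values rest in part on A_51_P286610 and on arrays not above background.

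The remaining members of the endosomal and recycling routes moved less. Tbc1d10a, a Rab27a and Rab35 regulator (EPI64), rose by 0.86 ± 0.11 at 3 h in the control line (limma adjusted p = 2.65e-06) and was at -0.05 ± 0.11 at 5 h (0.783). Within the Tbc1d23 line it rose by 0.47 ± 0.11 at 3 h and 0.49 ± 0.11 at 5 h (adjusted p = 0.00842 and 0.00698), and it was lower there than in the control line at 3 h and higher at 5 h. Tbc1d10b was higher in the Tbc1d23 line at 3 and 5 h, by 0.67 ± 0.14 and 0.43 ± 0.14, with group means of 4.95 to 5.65. Tbc1d10c, known as carabin, an inhibitor of calcineurin and Ras, had group means from -3.37 to -2.41 and passed no test. Tbc1d13, a Rab35 regulator, was lower in the Tbc1d23 line at 0, 1 and 5 h, with differences of -0.45 ± 0.16, -0.47 ± 0.16 and -1.00 ± 0.16, with group means from 3.96 to 4.97.

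Usp6nl, which turns off Rab5 and Rab43, was lower in the Tbc1d23 line at 1 and 3 h, with differences of -0.34 ± 0.11 and -0.51 ± 0.11, with group means from -2.06 to -1.38. Rabgap1 had group means from -1.78 to -1.28 and was higher in the Tbc1d23 line at 3 h by 0.41 ± 0.14. Evi5, a Rab11 regulator of the cell cycle, fell by 0.67 ± 0.15 at 3 h in the control line, with group means from 0.02 to 0.76. Its 2 probes opposed each other between the lines at 0 h, by -0.50 ± 0.16 and 0.55 ± 0.13, and again at 1 h. The gene is counted as lower at both times by its leading probe alone. Evi5l rose by 0.35 ± 0.11 at 3 h and at 5 h in the control line, with group means from -0.61 to -0.08, and its response at 3 h differed by -0.48 ± 0.15. Of its 3 probes 1 was called in each of these, and at 3 h in the control line they ran from -0.31 to 0.35.

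Tbc1d1 and Tbc1d4 (AS160) are close relatives that Akt and AMPK phosphorylate and that hold back the glucose transporter GLUT4, encoded by Slc2a4, until insulin or exercise releases it. The pair moved in opposite directions in the control line. Tbc1d1, probed at chr5:64741174-64741233 (mm9, plus strand), read 0.15, -0.19 and -0.13 at 0 h, 0.20, 0.05 and 0.13 at 1 h, 1.94, 2.03 and 2.12 at 3 h and 1.55, 1.40 and 1.61 at 5 h in the control arrays. Within the Tbc1d23 line it read -0.10, -0.06 and 0.30 at 0 h, 0.16, 0.11 and 0.47 at 1 h, 0.45, 0.55 and 0.68 at 3 h and 0.26, 0.65 and 0.75 at 5 h. The lines overlapped at 0 and 1 h and were separate at 3 and 5 h, the control line being the higher.

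Tbc1d1 rose by 2.08 ± 0.14 at 3 h in the control line (limma adjusted p = 7.83e-10), 4.24-fold, and by 1.57 ± 0.14 at 5 h (2.95e-08). By this probe it rose by 0.51 ± 0.14 at both times in the Tbc1d23 line (adjusted p = 0.034 and 0.0393), where a second probe, A_52_P402331, stood at -0.04 ± 0.19 and -0.01 ± 0.19. With the mean of both probes the change at 5 h was 0.25 (adjusted p = 0.367), and within the run of 16 arrays it was 0.45 (0.415). The call at 5 h was lost without Tbc1d23 0 h replicate 1 or 2, 3 h replicate 2, 5 h replicate 2 or 3, control 1 h replicate 3 or control 3 h replicate 2 (0.41 to 0.51, adjusted p 0.0501 to 0.167). The responses differed by -1.57 ± 0.20 at 3 h and -1.07 ± 0.20 at 5 h (adjusted p = 1.31e-05 and 0.000524). With arrays centred on their medians the latter was -0.77 (adjusted p = 0.441). In the mean of times the gene was lower in the Tbc1d23 line, at -0.55 ± 0.13 (adjusted p = 0.0143). That call was lost without control replicate 1 or 3 (-0.52 and -0.54) and within the run of 16 arrays (-0.35, 0.103). The second probe was lower in the mean of times, at -1.44 ± 0.15 (adjusted p = 0.000722), and already at 0 h, at -0.83 ± 0.19.

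Tbc1d4 read -0.73, -1.02 and -1.39 at 0 h, -2.14, -1.19 and -0.95 at 1 h, -2.87, -2.41 and -2.25 at 3 h and -3.30, -2.97 and -3.15 at 5 h in the control line (chr14:101864965-101876239, mm9, minus strand, a span longer than the probe). Those of the Tbc1d23 line read -1.45, -1.93 and -1.28 at 0 h, -0.93, -1.89 and -1.29 at 1 h, -2.06, -2.63 and -2.04 at 3 h and -2.16, -2.26 and -2.18 at 5 h. The lines were separate at 5 h and overlapped at 0, 1 and 3 h. The gene fell by 2.09 ± 0.29 at 5 h in the control line (limma adjusted p = 8.42e-06), 4.26-fold, was at -0.65 ± 0.29 in the Tbc1d23 line (0.29), and the responses differed by 1.45 ± 0.41 (0.0145). The last value was 1.19 (adjusted p = 0.232) within the run of 16 arrays and 0.59 (0.0878) with repaired normexp. Another probe, A_52_P381430, was not well above background in the control line at 5 h, at least 6.57-fold below its level at 0 h.

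**Figure D3:**
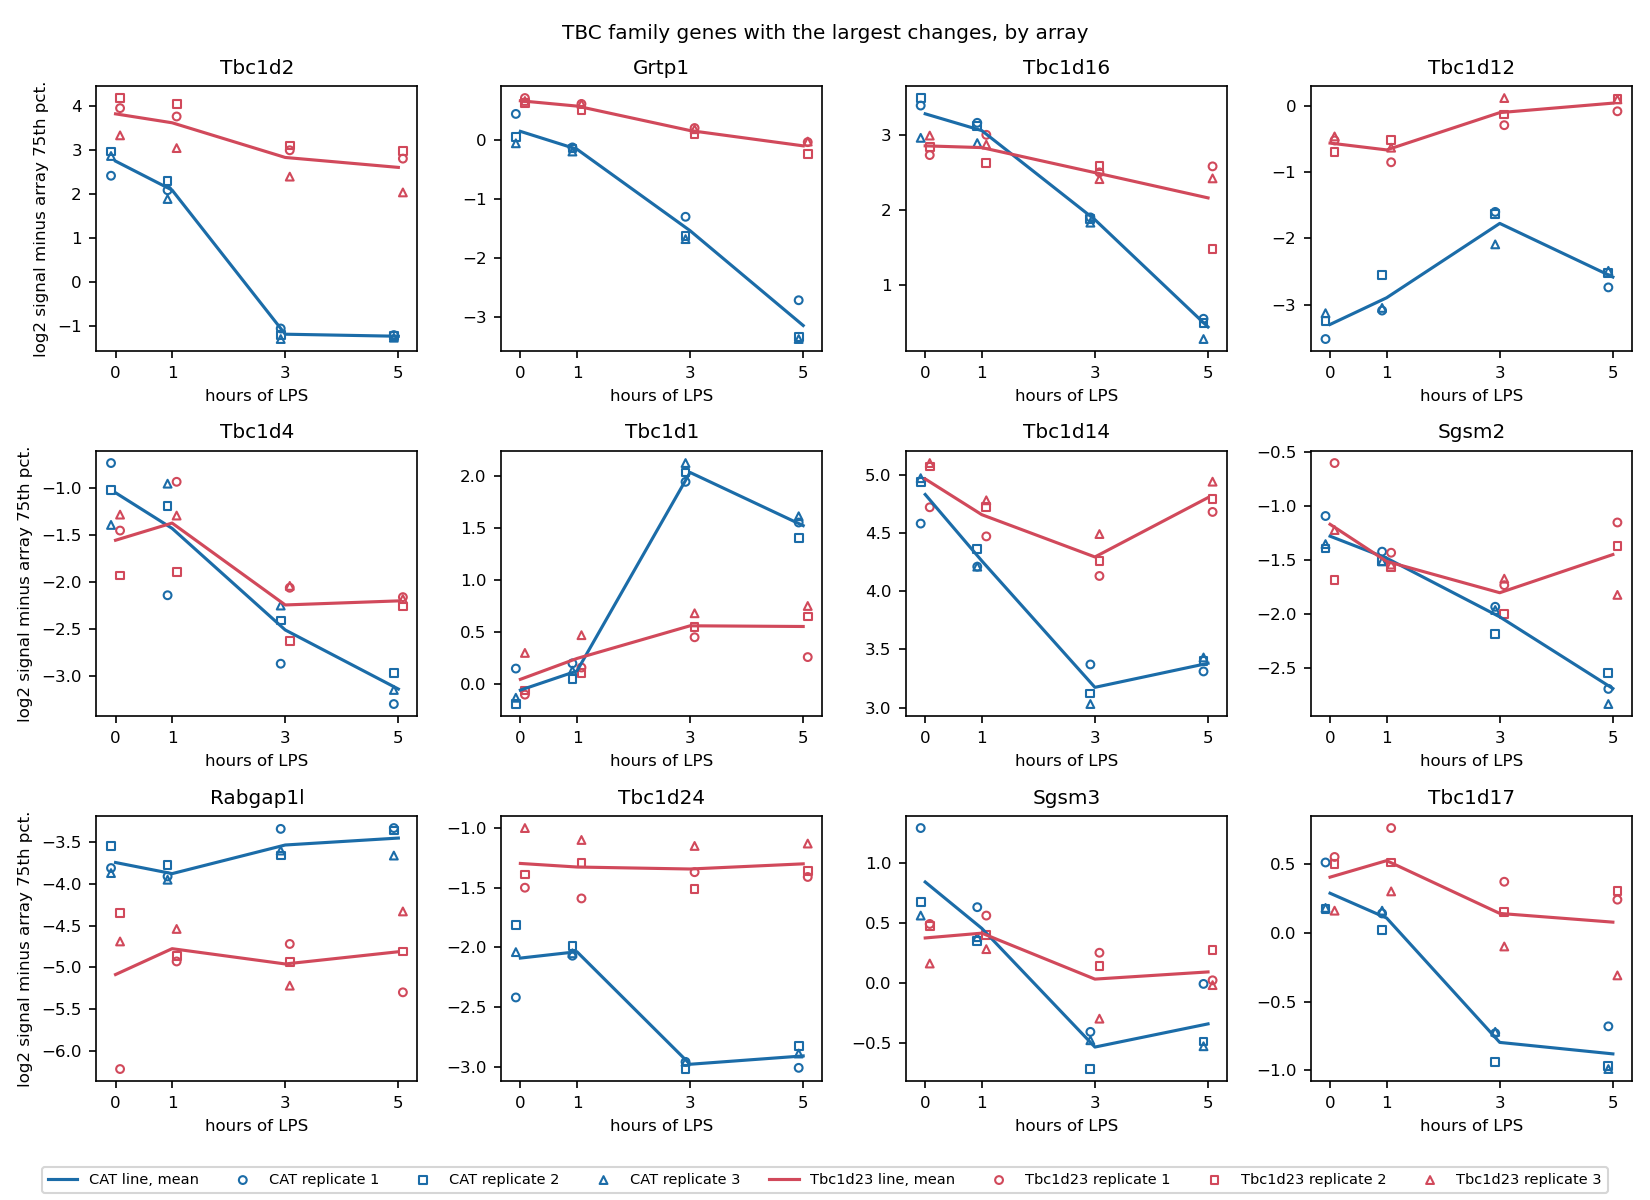
The 12 members that changed at least 2-fold in the mean line difference, the 5 h responses or their difference are plotted by hours of LPS as log2 signal minus the 75th percentile of the array. Each symbol is 1 array and each line the mean of 3, with a vertical scale of its own for each gene. Tbc1d2, Grtp1 and Tbc1d16 drop in the control line and remain higher in the Tbc1d23 line at 5 h, Tbc1d1 rises mainly in the control line, and Tbc1d12 and Tbc1d24 keep the lines apart at all times.

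Grtp1, growth hormone regulated TBC protein 1, has its probe at chr8:13177134-13179373 (mm9, minus strand, a span longer than the probe). The control arrays read 0.45, 0.06 and -0.05 at 0 h, -0.12, -0.14 and -0.19 at 1 h, -1.30, -1.63 and -1.68 at 3 h and -2.72, -3.35 and -3.38 at 5 h. Its Tbc1d23 arrays read 0.72, 0.63 and 0.67 at 0 h, 0.62, 0.51 and 0.62 at 1 h, 0.21, 0.10 and 0.19 at 3 h and -0.03, -0.23 and -0.02 at 5 h. In both lines each time was separate from the 0 h arrays, and the lines were separate from each other at all 4 times. Grtp1 fell by 3.31 ± 0.15 at 5 h in the control line (limma adjusted p = 2.1e-12), 9.90-fold, and by 0.76 ± 0.15 in the Tbc1d23 line (adjusted p = 0.00356), a call lost within the run of 16 arrays (-0.68, 0.553) and with arrays centred on their medians (-0.51, 0.92). The responses differed by 2.54 ± 0.22 (adjusted p = 4.61e-08). The mean difference between the lines was 1.50 ± 0.14 (adjusted p = 0.000523), 2.84-fold.

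The Sgsm proteins combine a TBC domain with a RUN domain and bind Rap and Rab GTPases. The probes lie at chr11:74663022-74663081 (minus strand) for Sgsm2 and chr15:80841195-80841327 (plus strand, a span longer than the probe) for Sgsm3, both in mm9. Sgsm2 read -1.09, -1.39 and -1.35 at 0 h, -1.42, -1.51 and -1.51 at 1 h, -1.93, -2.18 and -1.96 at 3 h and -2.69, -2.54 and -2.83 at 5 h in the control line. Within the Tbc1d23 line it read -0.60, -1.68 and -1.22 at 0 h, -1.43, -1.56 and -1.54 at 1 h, -1.73, -2.00 and -1.67 at 3 h and -1.15, -1.37 and -1.82 at 5 h. The lines were separate at 5 h and at no earlier time. It fell by 1.41 ± 0.20 at 5 h in the control line (limma adjusted p = 1.32e-05) and was at -0.28 ± 0.20 in the Tbc1d23 line (0.658). The responses differed by 1.13 ± 0.29 (adjusted p = 0.00698), and by 0.33 (0.28) with repaired normexp.

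Sgsm3 read 1.29, 0.67 and 0.56 at 0 h, 0.63, 0.35 and 0.38 at 1 h, -0.41, -0.72 and -0.48 at 3 h and -0.01, -0.49 and -0.53 at 5 h in the control line. Readings in the Tbc1d23 line were 0.49, 0.47 and 0.16 at 0 h, 0.56, 0.40 and 0.28 at 1 h, 0.25, 0.14 and -0.30 at 3 h and 0.02, 0.27 and -0.02 at 5 h. The control arrays at 3 and 5 h lay below those at 0 h, while the lines overlapped at 1 and 5 h. It fell by 1.18 ± 0.19 at 5 h in the control line (limma adjusted p = 4.61e-05), and the responses differed by 0.90 ± 0.27 (0.0196). This difference missed the threshold without Tbc1d23 0 h replicate 3 or 5 h replicate 2, or control 0 h replicate 1 or 5 h replicate 2 or 3 (0.68 to 0.83), and within the run of 16 arrays (1.01, 0.137). Sgsm1 was higher in the Tbc1d23 line at 3 and 5 h, by 0.94 ± 0.17 and 1.04 ± 0.17, with group means from 2.79 to 3.84. Of its 2 probes 1 was called at each of these times, and the other stood at 0.40 and 0.41.

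Of the members at the endoplasmic reticulum, the Golgi and the lysosome, Tbc1d20, which turns off Rab1, fell by 0.55 ± 0.12 at 3 h in the control line (limma adjusted p = 0.00147), with group means from 0.79 to 1.45. Tbc1d22a, a Golgi protein, changed by -0.90 ± 0.12 and -0.88 ± 0.12 at 3 and 5 h in the control line, a fall at both, and its responses differed by 0.80 ± 0.18 and 0.62 ± 0.18. It was lower in the Tbc1d23 line at 0 and 1 h and higher at 3 h, with group means from 2.59 to 3.49. Tbc1d22b had group means from -2.21 to -1.68 and passed no test. Tbc1d7, a subunit of the TSC complex that restrains mTORC1, had group means from -1.45 to -1.00 and passed none either.

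Among the less studied members, Tbc1d8b was higher in the Tbc1d23 line at all 4 times, by 0.57 ± 0.20 to 1.19 ± 0.20, with group means from -1.61 to -0.17. Tbc1d9b fell by 0.74 ± 0.18 at 3 h in the control line, with group means from -0.03 to 0.70. Of its 3 probes one was lower in the Tbc1d23 line at 0 h, at -0.47 ± 0.18, and another higher, by 0.76 ± 0.24, so that the gene is counted as lower there by its leading probe alone. Tbc1d19 had group means from -0.24 to 0.30 and passed no test. Tbc1d30 had group means from -4.94 to -3.40 and was lower in the Tbc1d23 line at 3 h (limma, -1.53 ± 0.62, adjusted p = 0.0471), where it was not well above background and the control line was at least 1.80-fold higher. Its probe was retained through the control line alone, so this direction is partly given by the filter.

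The members were also counted by their difference between the lines at each time. At 0 h 6 members were higher and 6 lower in the Tbc1d23 line (limma adjusted p under 0.05), where 25.3% of all gene names were higher and 20.0% lower. At 1 h 9 were higher and 6 lower, against 24.8% and 21.1%, both near the share over all gene names. At 3 h 16 were higher and 7 lower, against 27.3% and 23.7%, and at 5 h 15 were higher and 3 lower, against 30.3% and 23.3%. In the mean of times 12 were higher and 4 lower, against 26.0% and 21.8%. The median member stood at 0.11, 0.08, 0.40 and 0.40 at the 4 times, against 0.10, 0.06, 0.05 and 0.10 over all gene names. The count at 1 h was 9 without Tbc1d23 replicate 2 or control replicate 1 of that time, and the count in the mean of times was 10 without control replicate 1.

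Centring arrays on their medians changed the split before LPS. With it 1 member was higher and 9 lower at 0 h, where 5.74% of all gene names were higher and 24.8% lower, and the median of all gene names moved from 0.10 to -0.45. The run of 16 arrays alone gave 5 members higher and 2 lower before LPS, where 20.1% of all gene names were higher and 14.8% lower. It gave 14 and 3 at 3 h, against 23.3% and 18.9%, and 14 and 3 at 5 h, against 24.9% and 20.1%. In the main setting 6 members were higher at all 4 times (Tbc1d2, Tbc1d8b, Tbc1d12, Tbc1d15, Tbc1d24 and Grtp1), Rabgap1l was lower at all 4, and 6 were called at no time. Over all gene names these shares were 14.7%, 10.4% and 29.4%. Rabgap1l was not above background in the Tbc1d23 line and was retained through the control line alone, so its direction was partly given by the filter. Tbc1d30, counted as lower at 3 h, was also retained through the control line alone. Tbc1d10a and Tbc1d22a were called in both directions at different times, as were 5.36% of all gene names.

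**Figure D4:**
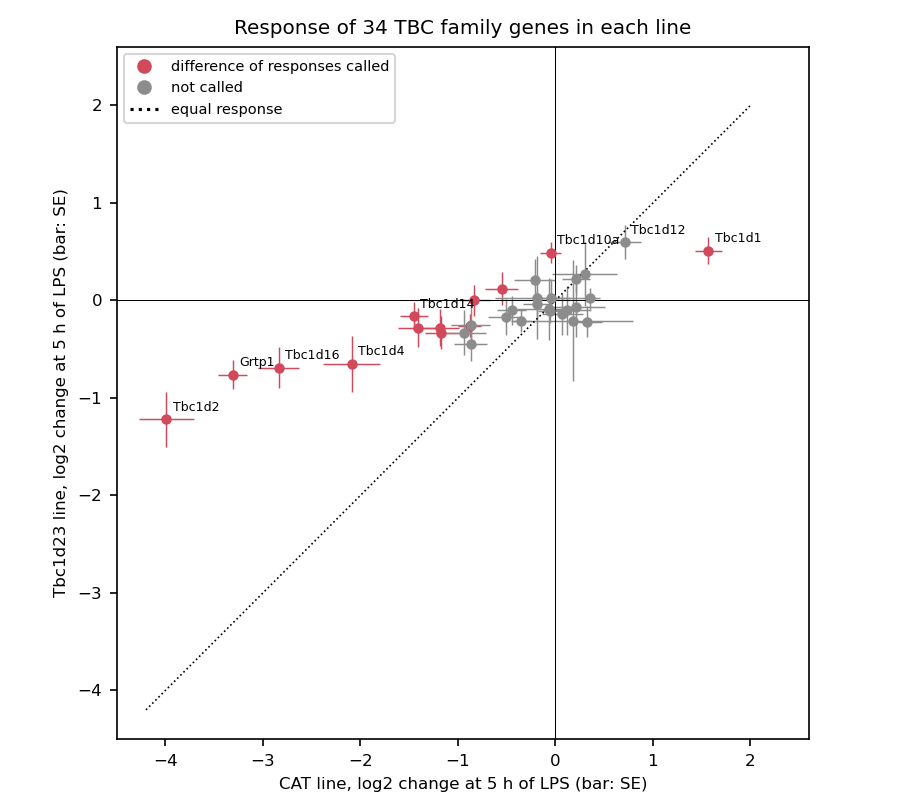
The log2 change at 5 h of LPS in the control line (horizontal) is set against that in the Tbc1d23 line (vertical) for the 34 members, with bars for limma's SE; red points are the 13 members whose responses differed, and the dotted line marks an equal response. Tbc1d2, Grtp1, Tbc1d16 and Tbc1d4 lie far to the left and above the dotted line, and Tbc1d1 lies to the right and below it.

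The promoter windows of members that moved with LPS in the control line are shown for the motif that the NF-kB transcription factor, a main effector of LPS signalling, is known to bind. RefSeq (GRCm38.p6) gave the 250 bases before the start for 29 of the 34 members, in 38 windows. The NF-kB motif, searched on both strands, was found in 8 of the 38 windows (21.1%) and in 7.25% of 32851 windows of that length. Those 32851 windows were not limited to genes retained on the array, as the members' were. The shares of this and the other motifs are therefore of unlike sets, and enrichment was not tested. Its capitals mark the match in a window of Tbc1d1 (chr5:64160010-64160259, plus strand) and of Tbc1d10a (chr11:4186583-4186832, plus strand), which rose at 3 h, and the window of Tbc1d2 (chr4:46650200-46650449, minus strand), which fell, held no match. Nor did the windows of Tbc1d12 and Evi5l, which rose at 3 h, Evi5l by its leading probe alone.

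Tbc1d1: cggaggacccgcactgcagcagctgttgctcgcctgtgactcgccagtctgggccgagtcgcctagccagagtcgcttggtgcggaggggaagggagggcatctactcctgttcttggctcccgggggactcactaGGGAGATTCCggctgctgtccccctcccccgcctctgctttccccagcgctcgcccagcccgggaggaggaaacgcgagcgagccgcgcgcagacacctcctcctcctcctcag
Tbc1d10a: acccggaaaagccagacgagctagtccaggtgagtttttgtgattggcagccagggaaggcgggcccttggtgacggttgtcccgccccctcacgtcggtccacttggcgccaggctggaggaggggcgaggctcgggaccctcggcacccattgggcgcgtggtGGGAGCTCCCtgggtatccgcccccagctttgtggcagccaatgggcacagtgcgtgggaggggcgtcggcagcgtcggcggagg
Tbc1d2: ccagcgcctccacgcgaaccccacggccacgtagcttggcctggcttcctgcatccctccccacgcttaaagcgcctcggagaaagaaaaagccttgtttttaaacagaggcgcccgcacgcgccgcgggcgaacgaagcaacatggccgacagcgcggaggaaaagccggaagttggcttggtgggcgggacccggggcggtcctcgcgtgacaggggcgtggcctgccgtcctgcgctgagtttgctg

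The motif also stood in windows of Tbc1d14, Tbc1d5, Tbc1d10b, Tbc1d23, Rabgap1 and Evi5, among which Tbc1d14, Tbc1d10b and Evi5 fell at 3 h in the control line. The GC box GGGCGG, which can overlap an NF-kB match, was in 63.2% of the members' windows and 32.7% of all windows. The AP-1 motif TGANTCA was in 5.26% and 6.75%, the E-box GTCACGTG bound by TFEB in 2.63% and 1.85%, and the cAMP response element TGACGTCA and the interferon element GAAANNGAAA in none of the 38 windows and in 1.55% and 2.98% of all. A match is a description of these letters and not a binding site, and these windows come from another build than the probe positions.

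The Rab GTPases on which TBC proteins act were counted alongside, with their other regulators and the partners of TBC proteins. Of 32 Rab genes 13 were higher and 4 lower in the Tbc1d23 line in the mean of times (limma adjusted p under 0.05, against 26.0% and 21.8% of all gene names), with a median of 0.28 where the median over all gene names was 0.07. Rab15, an endosomal Rab enriched in neurons, was higher by 7.05 ± 0.20, 133-fold (adjusted p = 1.66e-05), and it stood apart already at 0 h, by 7.89 ± 0.25. Rab4a, the substrate of Tbc1d16, was higher by 1.58 ± 0.15, and Rab32 and Rab3d, Rabs of lysosome-related organelles and of secretory granules, were lower, at -1.51 ± 0.09 and -1.70 ± 0.13. At 5 h 8 Rab genes rose and 8 fell in the control line, where 18.4% of all gene names rose and 23.3% fell.

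Of 42 other Rab regulators 12 were higher and 10 lower in the mean of times, against the same shares over all gene names, with a median of 0.05. The exchange factor Dennd2c was higher by 2.06 ± 0.16, while Dennd2d, another exchange factor, and the Rab escort protein Chml were lower, at -1.96 ± 0.14 and -2.16 ± 0.10. The exchange factor Rin1 was called higher, but it was above background on 2 control and 10 Tbc1d23 arrays, and no fold is given. At 5 h 6 of them rose and 13 fell in the control line, where 18.4% of all gene names rose and 23.3% fell. Of 33 partner proteins 10 were higher and 3 lower in the mean of times, against 26.0% and 21.8% of all gene names, with a median of 0.25. The GLUT4 gene Slc2a4 was called higher, but it was above background on 2 control and 7 Tbc1d23 arrays, and no fold is given. Lnpep, the insulin-responsive aminopeptidase of the same vesicles, was higher by 1.58 ± 0.16. Akt2 and Map1lc3a were lower, at -0.61 ± 0.18 and -0.65 ± 0.14. The responses at 5 h differed upward for 5 Rab genes and downward for 6, for 5 and 2 of the other regulators and for 2 and 4 of the partners, where 12.7% of all gene names differed upward and 10.6% downward.

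Depth and identity of the arrays were as follows. Between 42.1% and 69.6% of probes were well above background per array, the 75th percentile lay between 157 and 364 signal units and no spot was saturated. Both ends of the first range were 0 h arrays of the Tbc1d23 line, replicate 2 at 42.1% and replicate 1 at 69.6%, with replicate 3 at 57.5%. That group is the baseline of the Tbc1d23 responses and enters every difference of responses. Of 11 macrophage markers 10 were above background on all 12 arrays of each line. Their summed linear level, relative to the 75th percentile, was 1.63e+03 to 2.5e+03 in the control arrays and 1.12e+03 to 1.82e+03 in the Tbc1d23 arrays. Of 10 macrophage markers tested in the mean of times, 0 were higher in the Tbc1d23 line, 4 lower and 6 not called (limma). Over all gene names 26.0% were higher and 21.8% lower. The 4 differed by -2.68 ± 0.18 for Mpeg1, -2.20 ± 0.15 for Adgre1, -1.64 ± 0.17 for Spi1 and -0.81 ± 0.15 for Fcgr1. At 0 h 2 were higher and 4 lower, against 25.3% and 20.0% of all gene names. Mertk was above background on no control array and on some Tbc1d23 arrays. Of 11 T and B cell markers 4 were above background on all control arrays and 3 on all Tbc1d23 arrays, with sums of 0.941 to 2.40 and 3.78 to 5.43, and Cd5 was higher in the Tbc1d23 line by 2.80 ± 0.14. The pre-B cell gene Vpreb1 was not well above background on any of the 12 control arrays and was above it on 12 arrays in all. Cd3e differed by -1.58 ± 0.41. Of 11 fibroblast and epithelial markers 2 were above background on all control arrays and 0 on all Tbc1d23 arrays, with sums of 0.517 to 1.49 and 0.212 to 1.31. These values move with the line, and their part in the differences of the TBC family was not tested.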

How the data were processed

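RNA from 24 samples was hybridised to 1-colour Agilent mouse arrays, 4 on each of 6 slides. The deposited scanner files give spot intensity that Agilent Feature Extraction 10.7.1.1 had background-corrected, per the file headers. The authors also deposited a table of log2 values. Its arrays share 1 distribution (median 3.873, largest gap between arrays 0), as quantile normalization gives, and it ranked probes as the scanner files do (Spearman 0.9997 to 0.9999). It served as an alternative. The submitters' processing notes name RMA and Partek without a role.

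Processed intensities were put on the log2 scale and centred on each array's 75th percentile. Control spots and outlier flags were left out, spots of a probe were averaged, and a gene is represented by 1 probe, the retained one with the highest mean. Fits used limma 3.58.1 in R 4.3.3 over all retained gene names or probes, with Benjamini-Hochberg adjustment over all of them and a threshold of 0.05. LPS responses, line differences and their interaction came from 1 fit of 8 groups, and the mean line difference from the mean of the 4 times of each replicate. An exact permutation test of 3 arrays against 3 cannot go below p = 0.1, so none was used. Folds are from log2 differences, and "at least" marks a bound where a group was not well above background. The number of arrays limits the precision.

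Members and lists were chosen with earlier results of these data known. All probes of Tbc1d23 are described. Array values are given for members called and at least 2-fold changed in the mean line difference, a 5 h response or the 5 h interaction, other members by range, and the 2 highest and 2 lowest called mean line differences from the lists of Rab substrates, other Rab regulators and partner proteins. Same-numbered arrays deviated together within a line (r of 0.18 to 0.82), where they share a slide, and not across lines (-0.43 to 0.03). The replicate block is therefore the replicate within its line for LPS responses, and the number alone for line differences. The alternatives were other scalings, background correction, filters, probe averaging, slide and replicate blocks, the deposited table and leaving out each replicate. Scripts were tested on simulated data.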

Additional observations from a re-analysis of the deposited data

Results flagged for a closer look

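The responses of the 2 lines to LPS differed, by limma's interaction term, for the following members, with the change in the Tbc1d23 line minus that in the control line on the log2 scale. At 3 h the difference was upward for Grtp1 by 1.19, Sgsm3 by 1.03, Tbc1d14 by 0.99, Tbc1d15 by 0.76, Tbc1d16 by 1.05, Tbc1d17 by 0.82, Tbc1d2 by 2.95, Tbc1d22a by 0.80 and Tbc1d24 by 0.84. At 3 h it was downward for Evi5l by -0.48, Tbc1d1 by -1.57 and Tbc1d12 by -1.07. At 5 h the difference was upward for Grtp1 by 2.54, Sgsm1 by 0.67, Sgsm2 by 1.13, Sgsm3 by 0.90, Tbc1d10a by 0.54, Tbc1d14 by 1.29, Tbc1d16 by 2.15, Tbc1d17 by 0.84, Tbc1d2 by 2.77, Tbc1d22a by 0.62, Tbc1d24 by 0.82 and Tbc1d4 by 1.45. At 5 h it was downward for Tbc1d1 by -1.07. Groups held 3 arrays each, so single arrays far from their group were not tested.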

How the results depend on the processing

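Of 180 counts of members under alternatives, 149 stayed within 1.5 times of the reported count. These counts add higher and lower members, so they miss a changed split such as that at 0 h with arrays centred on their medians. Of 850 values of single genes and probes 764 kept their side of the threshold, and none reversed sign with a call. The 850 cover Tbc1d23, its retained probes and the members chosen for called changes of at least 2-fold, and not the other members. With arrays centred on their medians 6 members were called in the mean line difference, 3 at 1 h, 13 at 3 h and 11 at 5 h. Of all gene names 27.7%, 20.1%, 27.5% and 31.0% were called in these. In the control line 0 members responded at 1 h, 11 at 3 h and 10 at 5 h, against 2.79%, 15.6% and 21.2% of all gene names. In the Tbc1d23 line 0 responded at 3 h and 0 at 5 h, against 3.10% and 1.46%. Responses differed for 4 members at 3 h and 6 at 5 h, against 7.09% and 8.90%. The mean line difference of A_52_P448220 was then 0.29. In the control line 2 members were called at 1 h with quantile normalization, repaired normexp, the deposited values or within the run of 16 arrays, 3 with the slide run as a block, 7 with the replicate block and 8 under the random slide block. Of all gene names, 648 were then higher and 564 lower in the control line with quantile normalization, and 650 and 559 with the deposited values. Repaired normexp gave 503 and 532, the slide run as a block 746 and 1036, and the random slide block 946 and 1515. In the Tbc1d23 line 1 member was called at 1 h without the filter, where 145 of all gene names were higher and 1270 lower. At 3 h there it was 2 with the mean of probes, 10 with the random slide block, 11 with the replicate block and 0 within the run, and at 5 h 8, 8 and 2 with those last 3 settings. In the Tbc1d23 line at 3 h the mean of probes called 510 of all gene names higher and 592 lower. The random slide block called 1113 and 1502 at 3 h, and 1044 and 1358 at 5 h. With the replicate block responses differed for 1 member at 1 h and 19 at 3 h. Shares over all gene names with that block are given above. Within the run 7 members differed between the lines at 0 h, and responses differed for 3 at 3 h and 7 at 5 h. A_51_P223575 at 3 h was 0.44 with repaired normexp, 0.47 with the random slide block, 0.83 with the run block and 0.87 within the run. The mean line difference of A_52_P448220 was 0.42 with the run block, 0.42 within the run and 0.51 with the replicate block (adjusted p = 0.0551), where the number is shared across lines.

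Leaving out each replicate gave 8 to 13 members at 0 h, 9 to 16 at 1 h, 20 to 24 at 3 h, 17 to 20 at 5 h and 10 to 19 in the mean of times between the lines. Control responses numbered 0 to 1, 20 to 23 and 17 to 20 at 1, 3 and 5 h, Tbc1d23 responses 0 to 0, 2 to 5 and 2 to 6, and differing responses 0 to 0, 9 to 13 and 11 to 13. Shares over all gene names are not given for these fits. A_51_P223575 ran from 0.27 to 0.58 at 3 h and -0.14 to 0.14 in the mean of times, and A_52_P448220 from 0.79 to 1.18 and 0.43 to 0.56. The cause of these changes was not tested. Normexp as planned could not be fitted on 6 arrays and was not run. The repaired version was chosen after seeing the data, and its offset of 50 signal units narrows the differences of dim probes.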
